A study of Mus musculus with 9 samples.

Results

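Interactions spanning 10 to 100 kb are pairs of DNA segments, called anchors, on the same mouse chromosome (1 to 19) whose midpoints lay at least 10000 bp and less than 100000 bp apart. They numbered 326131 of the 4560397 interactions in 10 tables, against 2649387 that spanned 100 kb to 1 Mb. They were chosen by distance alone, not by any read count. The tables came from HiChIP, an assay that ligates DNA segments held close together in the nucleus, pulls down those bound by a chosen protein and sequences both ends. It was done on live CD4+ CD8+ double-positive thymocytes, sorted from whole thymi.

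The 9 libraries formed 5 groups. Antibody against H3K27ac, a histone acetylation of active promoters and enhancers, was used on NOD/ShiLtJ (NOD) and on C57BL/6J (BL6) thymocytes. Antibody against Smc1, a cohesin subunit, was used on thymocytes of a (NOD/ShiLtJ X C57BL/6) F1 cross, of NOD and of BL6 mice. Each NOD and BL6 group had 2 libraries and the F1 group had 1, whose reads were mapped separately to either parent's genome. NOD mice develop autoimmune diabetes spontaneously, and the labels name no treatment, age or sex. The Smc1 libraries of a strain were technical replicates of 1 biological sample, so their spread holds no difference between animals, while the H3K27ac libraries were labelled as biological replicates. Smc1 stands in the titles of the H3K27ac samples, but their antibody field and table names say H3K27ac, which was followed. NOD reads were mapped to the NOD genome and their positions were moved to mouse build GRCm38, so strain and mapping genome cannot be told apart in any NOD against BL6 value.

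Cohesin is a ring complex that extrudes DNA loops until it meets CTCF, a DNA-binding protein that halts it. At short range such loops join promoters to nearby enhancers, to the other end of the same gene and to neighbouring genes. Double-positive thymocytes rearrange the T cell receptor alpha gene and are tested for self-recognition, and they carry both coreceptors, CD4 and CD8.

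Sequence could be read for promoters, not for whole anchors. Of 20085 RefSeq promoter windows (250 bases before to 50 after a gene start, build GRCm38.p6), between 4.66% and 10.6% lay in an anchor of a 10 to 100 kb interaction in any 1 NOD or BL6 library. None of the 8 libraries held 65.6% of the windows, and all 8 held only 5 windows, of Rasgrp1, Cux1, Bcl2l1 and 2 starts of Trex1. The 5 windows printed below were chosen after their values were seen, 3 for being in all 8 libraries, Il4ra for being in 7 of 8, and Ctcf because its anchors had the most H3K27ac read pairs of the windows looked at. Capitals mark the E box CAGCTG, the letters bound by E proteins of developing lymphocytes. It was found once in the Il4ra window and in none of the other 4, against 15.6% of all windows. The CTCF core motif (1.05% of all windows), the RUNX site TGTGGT (14.8%) and the TCF/LEF site CTTTGA (14.2%) were searched on both strands and had no match in these 5 windows, which says only that those letters are absent there.
Rasgrp1 (chr2:117342828-117343127, minus strand): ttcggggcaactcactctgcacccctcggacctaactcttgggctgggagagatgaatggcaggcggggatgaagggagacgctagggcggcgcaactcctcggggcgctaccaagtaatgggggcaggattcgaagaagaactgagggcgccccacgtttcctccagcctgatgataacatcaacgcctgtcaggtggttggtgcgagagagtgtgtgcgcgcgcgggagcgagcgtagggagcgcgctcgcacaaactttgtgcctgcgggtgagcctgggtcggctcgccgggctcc
Cux1 (chr5:136565932-136566231, minus strand): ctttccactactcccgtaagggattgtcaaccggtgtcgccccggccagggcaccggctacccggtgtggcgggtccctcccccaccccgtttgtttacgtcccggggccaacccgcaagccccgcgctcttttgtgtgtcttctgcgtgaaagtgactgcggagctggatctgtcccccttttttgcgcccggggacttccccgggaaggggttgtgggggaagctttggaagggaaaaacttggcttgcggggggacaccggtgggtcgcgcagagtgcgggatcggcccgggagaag
Bcl2l1 (chr2:152830668-152830967, minus strand): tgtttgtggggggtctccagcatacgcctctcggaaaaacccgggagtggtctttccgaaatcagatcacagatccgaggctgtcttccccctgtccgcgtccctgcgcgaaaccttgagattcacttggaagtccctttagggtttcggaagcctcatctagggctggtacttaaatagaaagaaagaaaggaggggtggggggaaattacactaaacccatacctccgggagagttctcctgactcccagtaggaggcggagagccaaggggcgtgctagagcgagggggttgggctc
Il4ra (chr7:125552021-125552320, plus strand): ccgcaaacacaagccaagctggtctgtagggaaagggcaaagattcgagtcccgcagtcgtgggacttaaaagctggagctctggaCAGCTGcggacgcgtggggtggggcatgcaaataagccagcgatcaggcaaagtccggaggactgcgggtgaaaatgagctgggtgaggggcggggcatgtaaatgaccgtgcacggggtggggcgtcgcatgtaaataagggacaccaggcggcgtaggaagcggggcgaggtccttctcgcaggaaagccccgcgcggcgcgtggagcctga
Ctcf (chr8:105636288-105636587, plus strand): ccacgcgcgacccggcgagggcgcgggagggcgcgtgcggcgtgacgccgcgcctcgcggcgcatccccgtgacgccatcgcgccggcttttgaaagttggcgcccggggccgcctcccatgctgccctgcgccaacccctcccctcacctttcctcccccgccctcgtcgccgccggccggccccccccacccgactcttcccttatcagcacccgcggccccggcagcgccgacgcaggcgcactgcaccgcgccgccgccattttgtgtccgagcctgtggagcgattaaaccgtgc

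In what follows the value of replicate 1 comes before that of replicate 2. The names of the Smc1 NOD tables give other replicate numbers than the labels, and the labels were followed. Interactions with an anchor over the window of Rasgrp1, an activator of Ras below the T cell receptor, held 3 and 40 read pairs in H3K27ac NOD, 23 and 28 in H3K27ac BL6, 12 and 3 in Smc1 NOD and 43 and 18 in Smc1 BL6. The window of Bcl2l1, whose product Bcl-xL protects double-positive thymocytes from death, held 8 and 12, 4 and 10, 34 and 27, and 27 and 22 read pairs in the same order of groups. The range was wider between replicates of Rasgrp1 than of Bcl2l1. The Ctcf window held 49 and 55 read pairs in H3K27ac NOD and 182 and 42 in H3K27ac BL6, against 11 and none in Smc1 NOD and 3 and none in Smc1 BL6. The H3K27ac and Smc1 libraries did not overlap there. The window of Il4ra, the interleukin-4 receptor alpha chain, held 18 and none in H3K27ac NOD, 24 and 10 in H3K27ac BL6, 18 and 18 in Smc1 NOD and 9 and 14 in Smc1 BL6.

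The 10 to 100 kb interactions held 57589 and 61984 read pairs in H3K27ac NOD, 61431 and 139490 in H3K27ac BL6, 111788 and 97617 in the F1 library on the NOD and the BL6 genome, 264414 and 205613 in Smc1 NOD, and 249653 and 383299 in Smc1 BL6. The H3K27ac libraries thus rested on fewer read pairs than every Smc1 library of the parents. These were 10.9% to 14.7% of all listed read pairs of a library, a total that counts listed interactions and not sequencing depth. A 10 to 100 kb interaction averaged 4.11 to 5.54 read pairs, against 2.28 to 2.75 for one of 100 kb to 1 Mb. The tables list no interaction under 2 read pairs or with Q above 0.05. The fewest read pairs listed at 10 to 20 kb were 3 to 5 by library, and at 50 to 100 kb 2 or 3, so an unlisted pair was not necessarily without reads. Median spans ran from 51.7 to 57.02 kb. Between 79.3% and 92.9% of anchors had 1 partner in the band, and the best connected anchor of a table had 7 to 22.

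Both H3K27ac replicate 1 libraries stood apart by chromosome. Chromosomes 16 to 19 held 5.14% of the 10 to 100 kb interactions of H3K27ac NOD replicate 1 and 7.99% of those of H3K27ac BL6 replicate 1, against 12.2% to 18.5% in the other 8 tables. At features of those chromosomes the H3K27ac values without these libraries are the replicate 2 values printed below, and the tests at Cd6 are given without them. The skew was not confined to chromosomes 16 to 19. In the same order of libraries, chromosome 5 held 10.8% and 8.72%, against 5.94% to 7.08% in the other tables. Chromosome 10 held 3.41% and 3.15%, against 4.56% to 5.59%. H3K27ac replicate 1 values on other chromosomes thus carry this limit too, and its effect on them was not tested. Markers of the sorted cells were listed with contacts in most libraries. Cd8a, Cd8b1 and Lck had contacts in 8 of 8 NOD and BL6 libraries, Cd4 in 7, Rag2 in 6 and Rag1 in 3. Of the markers of other cells, Ms4a1 of B cells and Cd14 and Adgre1 of myeloid cells had none in any H3K27ac library. Contacts are not expression: Cd79a of B cells was listed in all 4 H3K27ac libraries.

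Few of these interactions recurred at the same place. To compare libraries, anchor midpoints were placed in 10 kb bins, which gave 235760 bin pairs over the 8 NOD and BL6 libraries. Of these, 88.0% were listed in 1 library, 23408 in 2, 3737 in 3, 868 in 4, 248 in 5, 66 in 6, 14 in 7 and 5 in all 8. Replicates of H3K27ac NOD shared 2.36% and 2.74% of their pairs, of H3K27ac BL6 5.27% and 2.14%, of Smc1 NOD 5.16% and 7.93%, and of Smc1 BL6 10.2% and 6.41%. With 25 kb bins there were 158502 pairs, 66.3% in 1 library and 42 in all 8. The 5 pairs in all 8 became 10 when H3K27ac NOD replicate 2 was left out and 9 without H3K27ac BL6 replicate 2.

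The 5 recurrent pairs lay on 5 chromosomes and joined bins 30 to 80 kb apart, at genes of unlike function. They were ranked by their mean level in CPM, the read pairs of a feature per 1000000 read pairs of the 10 to 100 kb band in that library. The first joined 2 bins (chr1:91180001-91190000 and chr1:91210001-91220000) at Ramp1, an accessory protein of the receptor for the neuropeptide CGRP. It held 5 and 18 read pairs in H3K27ac NOD, 45 and 17 in H3K27ac BL6, 23 and 30 in Smc1 NOD and 14 and 25 in Smc1 BL6. In CPM the Ramp1 pair averaged 189 ± 144 in H3K27ac NOD, 427 ± 432 in H3K27ac BL6, 116 ± 41.7 in Smc1 NOD and 60.7 ± 6.47 in Smc1 BL6 (SD, n = 2 each). The F1 library listed none there on either genome. The second (chr5:124640001-124650000 and chr5:124710001-124720000) lay within Atp6v0a2, a subunit of the vacuolar proton pump, and held 4 and 36 read pairs in H3K27ac NOD, 21 and 26 in H3K27ac BL6, 11 and 31 in Smc1 NOD and 46 and 4 in Smc1 BL6. In CPM its level was 325 ± 362 in H3K27ac NOD, 264 ± 110 in H3K27ac BL6, 96.2 ± 77.2 in Smc1 NOD and 97.3 ± 123 in Smc1 BL6 (SD, n = 2 each).

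The third joined the gene of the CD8 beta chain, Cd8b1 (chr6:71320001-71330000), to Rmnd5a, a ubiquitin ligase subunit (chr6:71390001-71400000), across 70 kb that hold Cd8a. It held 11 and 9 read pairs in H3K27ac NOD, 30 and 7 in H3K27ac BL6, 16 and 6 in Smc1 NOD and 37 and 32 in Smc1 BL6, with 24 and 25 in the F1 library on the NOD and the BL6 genome. In CPM it averaged 168 ± 32.4 in H3K27ac NOD, 269 ± 310 in H3K27ac BL6, 44.8 ± 22.2 in Smc1 NOD and 116 ± 45.8 in Smc1 BL6 (SD, n = 2 each). The fourth joined Ten1 and Evpl to the exocyst gene Exoc7 (chr11:116220001-116230000 and chr11:116290001-116300000). Its read pairs were 4 and 10 in H3K27ac NOD, 6 and 13 in H3K27ac BL6, 28 in the F1 library on either genome, 14 and 25 in Smc1 NOD and 47 and 42 in Smc1 BL6. The fifth lay at Ccdc88c, a regulator of Wnt signalling, and Ppp4r3a, a phosphatase subunit (chr12:100950001-100960000 and chr12:101030001-101040000). It held 3 and 11 read pairs in H3K27ac NOD, 6 and 4 in H3K27ac BL6, 20 and 14 in Smc1 NOD and 24 and 3 in Smc1 BL6, and no group stood clear of the others.

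**Figure D1:**
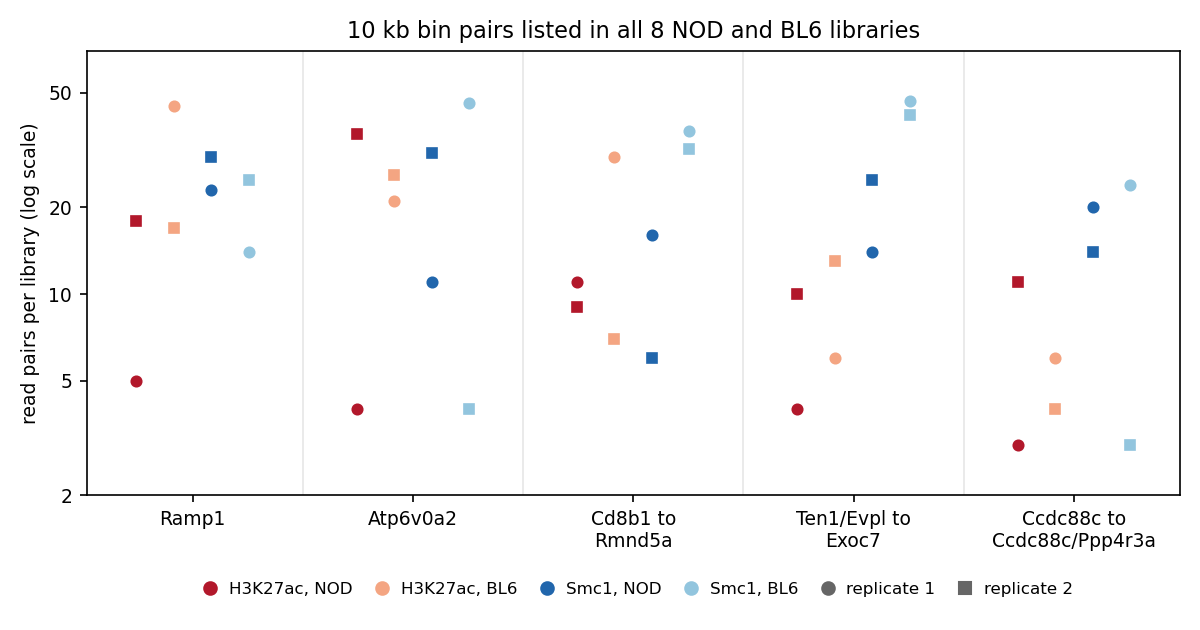
Read pairs of the 5 pairs of 10 kb bins listed in all 8 NOD and BL6 libraries, by group on a logarithmic axis (circles, replicate 1; squares, replicate 2). The counts are not scaled to library size, and on this axis the groups overlap at most pairs.

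The 42 pairs of 25 kb bins in all 8 libraries included pairs at the following T cell genes, read from the ranked list after their values were seen, as were all pairs named here at 25 kb. The pair from Gm1070 and Cd8b1 to Cd8a and Rmnd5a held 26 and 36 read pairs in H3K27ac NOD, 46 and 17 in H3K27ac BL6, 38 and 39 in the F1 library on the NOD and BL6 genomes, 39 and 6 in Smc1 NOD and 47 and 72 in Smc1 BL6. A pair at Cd247, the zeta chain of the T cell receptor complex, held 3 and 7 in H3K27ac NOD, 35 and 23 in H3K27ac BL6, 21 and 31 in Smc1 NOD and 32 and 12 in Smc1 BL6. At Zfp36l2, an RNA-binding protein that shortens messenger RNA life, the values were 13 and 21, 14 and 60, 16 and 9, and 64 and 29 in the same order. In CPM the Zfp36l2 pair averaged 282 ± 79.9 in H3K27ac NOD, 329 ± 143 in H3K27ac BL6, 52.1 ± 11.8 in Smc1 NOD and 166 ± 128 in Smc1 BL6 (SD, n = 2 each). It lies on chromosome 17. The Cd8 pair averaged 516 ± 91.4 CPM in H3K27ac NOD, 435 ± 443 in H3K27ac BL6, 88.3 ± 83.7 in Smc1 NOD and 188 ± 0.296 in Smc1 BL6. At both pairs H3K27ac NOD lay above Smc1 NOD and H3K27ac BL6 overlapped Smc1 BL6. Other pairs of that set lay at Ehd1 and Cdc42bpg, Trak1, Traf5, Ppp1r16b, Socs1 and Rmi2, and Hdac7.

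The strongest single interaction of a library was often not a recurrent one. In all 5 tables made on the NOD genome it lay at Sfi1, a centrosome protein gene on chromosome 11, with 91 and 129 read pairs in H3K27ac NOD, 436 in the F1 library and 204 and 349 in Smc1 NOD. In H3K27ac BL6 it joined Ripor1 to Ctcf (chr8:105622535-105625323 and chr8:105633513-105638398, 64 read pairs) in replicate 1 and in replicate 2 an interaction from Pkd1 to Tsc2 and another within Pitpnm2 and Mphosph9 tied with 37 read pairs each. In Smc1 BL6 it lay in the histone deacetylase gene Hdac4 (52 read pairs) in replicate 1 and joined Lcn15 to Lcn8 and Lcn5 (43) in replicate 2. The F1 library on the BL6 genome had its strongest at Tmem267 (90 read pairs).

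Interactions of 10 to 100 kb touched gene ends more often than longer ones did. An anchor counted as at a gene end when it lay within 5 kb of either end of 1 of 20665 protein-coding genes. Both anchors were at gene ends in 8.86% ± 1.39 of 10 to 100 kb interactions and in 5.67% ± 0.949 of those of 100 kb to 1 Mb (SD, n = 8 libraries). The share was higher in 8 of 8 libraries (exact two-sided paired permutation test, p = 0.00781, Benjamini-Hochberg adjusted p = 0.0313 over 8 tests). At least 1 anchor was at a gene end in 36.3% ± 3.08 of 10 to 100 kb and 32.8% ± 3.40 of longer interactions, again higher in 8 of 8 with the same exact p. These 8 libraries came from 6 biological samples, so these p-values are too small. With the technical replicates averaged, an alternative added after the data were seen, both shares were higher in 6 of 6 samples (differences of 3.23 and 3.25 points, exact p = 0.0313 each, the smallest that 6 pairs can give). Both anchors lay at an end of the same gene in 0.987% to 1.69% of the 10 to 100 kb interactions of a library. At 100 kb to 1 Mb the share was 0.027% to 0.042%. These shares do not require opposite ends, and anchors about 10 kb apart can both lie near 1 end. A gene much shorter than 100 kb cannot be at both anchors in the longer band. In all 10 tables interactions between gene ends held more read pairs on average than those with no anchor at one. In H3K27ac BL6 replicate 1 the mean was 6.29 with both anchors at gene ends, 5.60 with 1 and 5.36 with none, and in Smc1 BL6 replicate 1 it was 6.15, 5.68 and 5.22. The mean with both anchors was below that with 1 anchor in Smc1 NOD replicate 2 (5.42 and 5.44) and in the F1 library on the NOD genome (5.11 and 5.32). These classes were not matched for span, and read pairs fell with span inside the band. In Smc1 BL6 replicate 1 the mean was 8.52 at 10 to 20 kb, 5.88 at 20 to 50 kb and 4.70 at 50 to 100 kb. The part that span plays in the differences between classes was not tested.

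**Figure D2:**
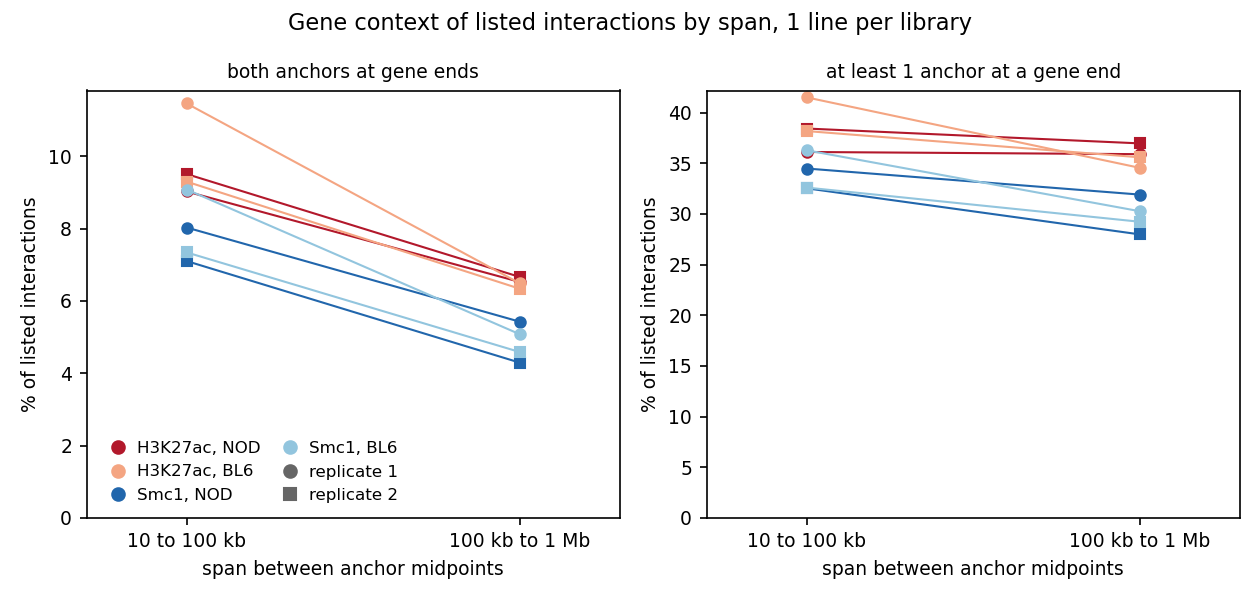
Percent of interactions of each library with an anchor within 5 kb of a gene end, for 10 to 100 kb and for 100 kb to 1 Mb (circles, replicate 1; squares, replicate 2). In each of the 8 NOD and BL6 libraries the shorter band has the higher share.

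H3K27ac libraries had more of their 10 to 100 kb interactions at gene ends than Smc1 libraries, short of the threshold. The share with at least 1 anchor at a gene end was 38.6% ± 2.22 in H3K27ac and 34.0% ± 1.78 in Smc1 libraries (SD, n = 4 each), a difference of 4.58 points (exact two-sided permutation test, p = 0.0571, adjusted p = 0.152). With a 2.5 kb window the difference was 4.32 points (p = 0.0286, exact permutation test, the smallest that 4 against 4 can give). The 4 Smc1 libraries came from 2 biological samples, so these p-values are too small. With those averaged, 4 against 2 samples gave an exact p of 0.133 with either window, the smallest that such a design allows. At 100 kb to 1 Mb, with the 5 kb window, the share was 34.5% to 37.0% in H3K27ac and 28.0% to 31.9% in Smc1 libraries. No test was run there, and the order of the antibodies was thus not particular to 10 to 100 kb. The share of read pairs that fell in the band, 12.3% ± 1.49 in H3K27ac and 13.0% ± 1.20 in Smc1, differed by less than the spread between libraries (exact p = 0.486). Strain was not separable in either share. At least 1 anchor lay at a gene end in 37.3% ± 1.64 of H3K27ac NOD and 39.8% ± 2.35 of H3K27ac BL6 interactions, and in 33.5% ± 1.38 of Smc1 NOD and 34.4% ± 2.60 of Smc1 BL6 interactions (SD, n = 2 each; exact p = 0.667 in each antibody, where 2 against 2 cannot give less than 0.333).

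Between antibodies, the 1 gene called higher with H3K27ac was Cd6, a T cell surface receptor of the scavenger family, whose short-range contacts were many with H3K27ac and few with Smc1. Read pairs of interactions with an anchor at either end of Cd6 numbered 67 and 102 in H3K27ac NOD and 100 and 109 in H3K27ac BL6, against 8 and 3 in Smc1 NOD and 3 and 6 in Smc1 BL6. The F1 Smc1 library, which no test used, had 9 on either genome. The level was 1305 ± 414 CPM in H3K27ac and 18.1 ± 8.23 CPM in Smc1 libraries (SD, n = 4 each). In edgeR's quasi-likelihood test over both strains with strain as a term, Cd6 was higher with H3K27ac (log2 fold change 4.97 ± 1.15 SE, adjusted p = 0.0352), 1 of the 4 genes called of 6987 tested (0.0572%; 0.0143% higher and 0.0429% lower). This joint fit was added after the data were seen.

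The 3 genes lower with H3K27ac were neighbours on chromosome 7. An interaction counted for each gene at its anchors, so neighbours share read pairs and these calls are not independent. Pnmal2, a gene of the paraneoplastic Ma antigen family, averaged 16.3 ± 32.6 CPM in H3K27ac and 526 ± 133 CPM in Smc1 libraries (log2 fold change -6.43 ± 1.33 SE, edgeR adjusted p = 0.00932). Its relative Pnmal1 had 4 and 4 read pairs in H3K27ac NOD and none and 4 in H3K27ac BL6, against 219 and 133 in Smc1 NOD and 166 and 138 in Smc1 BL6 (adjusted p = 0.0352 in edgeR). Ccdc8, a member of a complex that organises microtubules, had none and 5, none and 4, 148 and 83, and 150 and 115 in the same order (edgeR adjusted p = 0.0492). In the F1 Smc1 library Pnmal1 had 75 and 71 read pairs on the NOD and BL6 genomes. The phosphatase gene Ppp5c beside them, with 4 and 8, 4 and 4, 159 and 78, and 156 and 151 read pairs, was not called (adjusted p = 0.25 in edgeR).

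**Figure D3:**
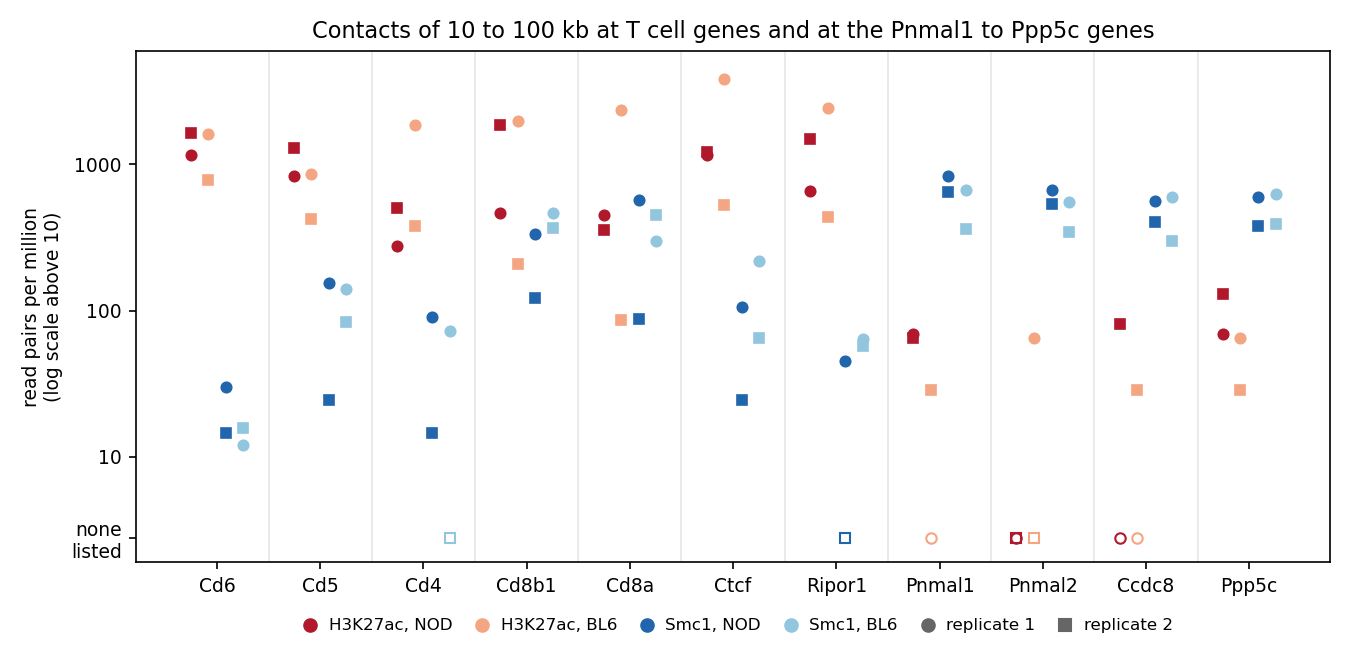
Contact levels in CPM at 10 to 100 kb of genes named in the antibody comparison, by group on an axis that is logarithmic above 10 (circles, replicate 1; squares, replicate 2; open symbols, none listed). All 4 H3K27ac libraries lie above all Smc1 libraries at Cd6 and below them at Pnmal1.

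These calls rest on few libraries and on the fit. Cd6 no longer passed with a term for replicate number or with a 2.5 kb gene window. No gene passed when any 1 of the 4 Smc1 libraries was left out (0 calls each, with 426 to 430 genes at an unadjusted p under 0.05 in edgeR), and 3 to 5 passed when any 1 of the 4 H3K27ac libraries was. Cd6 lies on chromosome 19, where both H3K27ac replicate 1 libraries were thin, and its adjusted p was 0.0423 without H3K27ac NOD replicate 1 and 0.0153 without H3K27ac BL6 replicate 1. Within 1 strain no gene was called by edgeR or DESeq2: 0 of 2153 in NOD, with 130 at an unadjusted p under 0.05, and 0 of 4465 in BL6, with 198. In NOD, 19 genes were called without H3K27ac NOD replicate 1, where the lone H3K27ac library is assumed to vary like the 2 Smc1 libraries, and in BL6 none when any 1 library was left out. The fold changes also depend on scaling, since the median gene had a log2 fold change of -0.81 under TMM, -0.60 under DESeq2's size factors and 0.33 under library totals with 10 CPM added, so that the direction of genes near that median depends on the scaling. Cd6 was 4.97, 5.27 and 5.55 and Pnmal2 -6.43, -6.37 and -4.35 on the same 3 scales.

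At the level of bin pairs, the same joint fit called 9 pairs higher and 31 lower with H3K27ac of 1108 tested (3.61%; 0.812% higher and 2.8% lower). Of the 9 higher pairs, 8 were listed in no Smc1 library of NOD or BL6. Of the 31 lower pairs, 17 were listed in no H3K27ac library. Such pairs passed the low-count filter through 1 antibody only. Of the lower pairs, 13 lay in the Sfi1 locus described with the strains, with log2 fold changes of -0.70 to -1.54 under TMM. In CPM the whole locus was not lower with H3K27ac. It held 47891 and 45592 CPM in H3K27ac NOD, against 21894 and 43655 CPM in Smc1 NOD. The direction of the smaller of these fold changes thus depends on the scaling. A pair within Cd6 (chr19:10780001-10790000 and chr19:10820001-10830000) held 28 and 33 read pairs in H3K27ac NOD and 18 and 23 in H3K27ac BL6, and none in any Smc1 library, F1 included (adjusted p = 0.00532 in edgeR). Its edgeR adjusted p was 0.533 without H3K27ac NOD replicate 1 and 0.0227 without H3K27ac BL6 replicate 1. The 10 kb pair from Ripor1 to Ctcf (chr8:105620001-105630000 and chr8:105630001-105640000) held 31 and 26 in H3K27ac NOD and 64 and 23 in H3K27ac BL6, against 4 and none in Smc1 NOD and none in Smc1 BL6 (log2 fold change 5.62 ± 1.40 SE, edgeR adjusted p = 0.00532). A pair in the spindle checkpoint gene Mad1l1 held 29 and 14 in H3K27ac NOD and 24 and 15 in H3K27ac BL6, and none with Smc1 (adjusted p = 0.0150 in edgeR). The H3K27ac libraries lay above all Smc1 libraries at these 3 pairs, a separation that the rule for naming pairs required.

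Pairs lower with H3K27ac joined genes of several kinds. The pair from P2rx1, an ATP-gated channel, to the kinase Camkk1 (chr11:73000001-73010000 and chr11:73030001-73040000) was listed in no H3K27ac library and held 14 and 7 in the F1 library on the NOD and BL6 genomes, 32 and 40 in Smc1 NOD and 45 and 37 in Smc1 BL6 (adjusted p = 0.00210 in edgeR). The pair from Sema7a, a semaphorin, to Cyp11a1, which makes pregnenolone from cholesterol (chr9:57930001-57940000 and chr9:57990001-58000000), held none in H3K27ac NOD and 5 and none in H3K27ac BL6, against 64 and 37 in Smc1 NOD and 38 and 19 in Smc1 BL6, with 33 in F1 on either genome (adjusted p = 0.0443 in edgeR). A pair between Tnip1 and Anxa6 (chr11:54930001-54940000 and chr11:54970001-54980000) was listed in no H3K27ac library and not in F1, and held 15 and 25 in Smc1 NOD and 22 and 30 in Smc1 BL6 (adjusted p = 0.0324 in edgeR). The count of 40 fell to between 0 and 7 when any 1 of the 8 libraries was left out (3096 to 5728 pairs tested then), and DESeq2 called none, with 40 pairs at an unadjusted p under 0.05. Within a strain edgeR called none of 176 pairs in NOD, with 70 at an unadjusted p under 0.05, and none of 403 in BL6, with 126; DESeq2 also called none in either. Without Smc1 NOD replicate 1, 14 pairs were called in NOD, with the same assumption for the lone library.

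Presence alone was also counted, as a description. Of the bin pairs, 23 were listed in all 4 H3K27ac libraries, and 5 of those in no Smc1 library of NOD or BL6, against 355 in all 4 Smc1 libraries, 184 of them in no H3K27ac library. The Smc1 libraries list more interactions, so these counts are not comparable. Among the 23 was a pair of 90 kb from Gm1070 to Rmnd5a, around the Cd8 genes, with 11 and 26 read pairs in H3K27ac NOD and 15 and 11 in H3K27ac BL6, against 15 and none in Smc1 NOD and 12 and 6 in Smc1 BL6. Another lay in Ldlrad3 and held 8 and 14 in H3K27ac NOD and 32 and 19 in H3K27ac BL6, against none and 4 in Smc1 NOD and none in Smc1 BL6.

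Genes that define the double-positive stage had high short-range contact levels with H3K27ac. The 35 genes of that list averaged 110 to 446 CPM per gene in H3K27ac and 33.8 to 99.4 CPM per gene in Smc1 libraries, against 28.9 to 35.4 and 24.9 to 30.7 CPM for all protein-coding genes. Of the 26 members tested in the joint fit, 16 had a positive and 10 a negative log2 fold change, and 1, Cd6, was called. Their median was 0.41, beside -0.81 over all genes tested, of which 28.6% were positive. Under library totals the medians were 1.39 and 0.33, with 22 of 26 positive. Within strains 14 of 18 tested members were positive in NOD and 11 of 19 in BL6, with none called. Over all genes tested 34.7% were positive in either strain.

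Cd4, the class II coreceptor, had 16 and 31 read pairs in H3K27ac NOD and 114 and 53 in H3K27ac BL6, against 24 and 3 in Smc1 NOD and 18 and none in Smc1 BL6. In CPM, which accounts for library size, the H3K27ac libraries (278 to 1856) lay above the Smc1 libraries (at most 90.8). Cd4 was not called (adjusted p = 0.54 in edgeR). Cd8b1 had 27 and 116, 121 and 29, 89 and 25, and 116 and 140 read pairs in the same order of groups. Its H3K27ac libraries (208 to 1970 CPM) and Smc1 libraries (122 to 465 CPM) overlapped. The recombinase gene Rag1 had contacts only in H3K27ac BL6 replicate 2 (6), Smc1 NOD replicate 1 (4) and Smc1 BL6 replicate 1 (6) among the parental libraries.

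The gene bodies from Cd5 to Cd6 with 5 kb on either side held 1441 and 1888 CPM in H3K27ac NOD and 1726 and 932 CPM in H3K27ac BL6, against 178 and 73.0 CPM in Smc1 NOD and 180 and 112 CPM in Smc1 BL6. The Cd8 region from Gm1070 to Rmnd5a held 1163 and 2452 CPM in H3K27ac NOD and 4639 and 746 CPM in H3K27ac BL6, against 896 and 204 CPM in Smc1 NOD and 829 and 793 CPM in Smc1 BL6. The H3K27ac libraries lay above all Smc1 libraries at Cd5 and Cd6 and not at Cd8. From Ripor1 to Ctcf the levels were 920 and 1275 CPM in H3K27ac NOD and 3239 and 394 CPM in H3K27ac BL6, against 140 CPM and none listed in Smc1 NOD and 188 and 86.1 CPM in Smc1 BL6.

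Other gene lists were closer to the background. Thymocyte transcription factors (48 genes) averaged 57.5 to 116 CPM per gene in H3K27ac and 35.8 to 62.6 in Smc1 libraries, and 9 of 30 tested members had a positive fold change. T cell receptor signalling genes (47) averaged 59.9 to 124 and 40.9 to 75.0 CPM, with 8 of 33 tested positive. Cytokine and chemokine receptors (32) averaged 80.4 to 142 and 47.6 to 69.8 CPM. The 16 cohesin, CTCF and loader genes averaged 78.9 to 269 CPM in H3K27ac and 29.8 to 42.1 CPM in Smc1 libraries, but Ctcf alone made 42.0% to 89.8% of the H3K27ac level, and without it the list averaged 29.3 to 48.7 and 20.6 to 40.5 CPM. Ctcf itself had 67 and 75 read pairs in H3K27ac NOD and 237 and 74 in H3K27ac BL6, against 28 and 5 in Smc1 NOD and 55 and 25 in Smc1 BL6, and was not called (edgeR adjusted p = 0.36). Housekeeping genes (27) averaged 20.9 to 40.5 in H3K27ac and 16.4 to 39.9 CPM in Smc1 libraries. Of the lists for other cells, B cell genes (10) averaged 23.7 to 53.8 in H3K27ac and 31.4 to 77.3 CPM in Smc1, and myeloid genes (12) 5.43 to 52.6 CPM in H3K27ac and at most 69.8 CPM in Smc1.

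**Figure D4:**
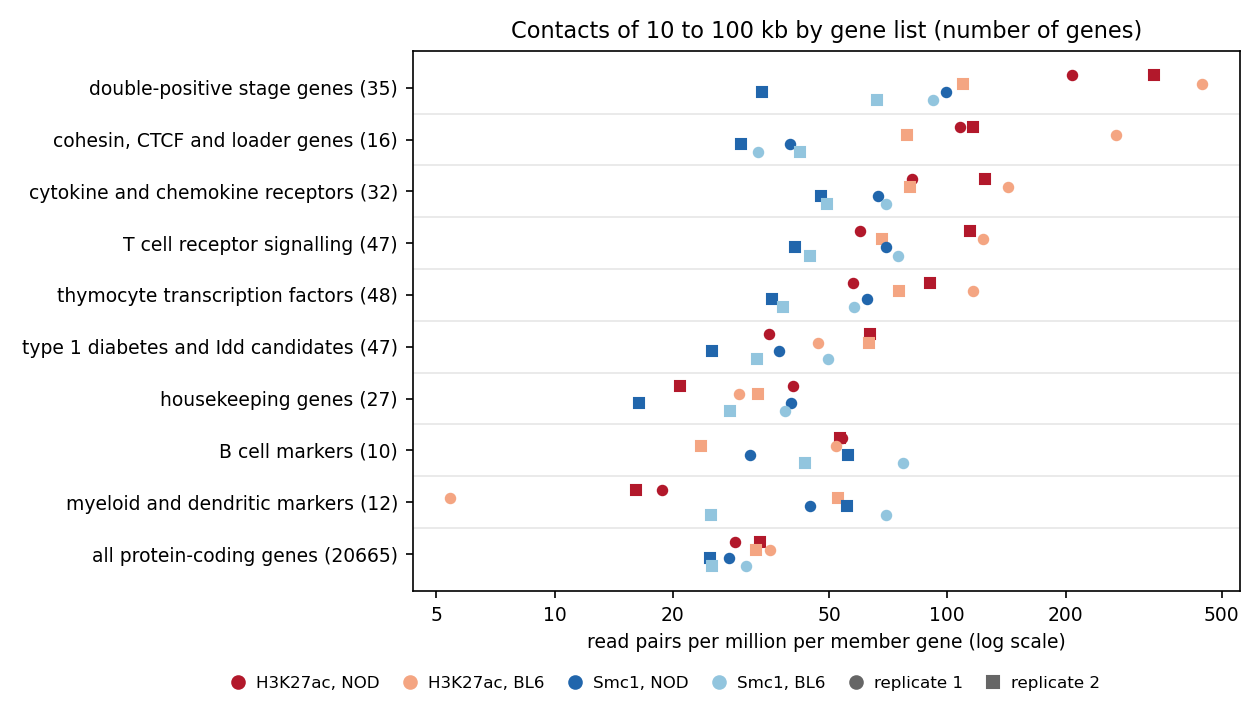
Mean 10 to 100 kb contact level per gene of the gene lists in CPM, for each NOD and BL6 library (circles, replicate 1; squares, replicate 2). Double-positive stage genes reach 446 CPM with H3K27ac, and all protein-coding genes stay between 24.9 and 35.4 CPM.

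Between strains, the contacts that differed were few and nearly all were higher in NOD. Sfi1 and its neighbour Eif4enif1, which carries the cap-binding protein eIF4E into the nucleus, held most of them. Sfi1 had 567 and 506 read pairs in H3K27ac NOD and none and 3 in H3K27ac BL6, and 910 and 1606 in Smc1 NOD and 3 and 3 in Smc1 BL6. With Smc1 edgeR called 3 genes higher in NOD and none lower of 5683 (0.0528%), and all 3 lay there: Gm51877, Eif4enif1 (log2 fold change 8.32 ± 0.63 SE) and Sfi1 (9.24 ± 0.72 SE, adjusted p = 0.0219). These neighbours share interactions, so the calls are not independent. Gm51877 and Eif4enif1 each had 2251 read pairs in Smc1 NOD replicate 2. With H3K27ac none of 792 genes was called by edgeR or DESeq2, with 11 at an unadjusted p under 0.05 in edgeR. Interactions with both anchors in the Sfi1 gene or within 5 kb of it held 2758 and 2826 read pairs of H3K27ac NOD, 4.79% and 4.56% of the band, and 5789 and 8976 of Smc1 NOD, 2.19% and 4.37% of the band, against none in any BL6 library.

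The F1 library was mapped to both genomes. Its reads gave 11386 read pairs at the Sfi1 locus on the NOD genome, 10.2% of its 10 to 100 kb read pairs, and none on the BL6 genome. When genes or pairs whose F1 level differed by over 1.5-fold between genomes were left out, which removes the Sfi1 features by construction, edgeR called no gene and no bin pair in any single-antibody strain comparison. The tables also count reads at each anchor: the anchors of the strongest Sfi1 interaction held 5418 and 3441 reads in H3K27ac NOD replicate 1, more than the 2831 and 2261 of the strongest interaction in H3K27ac BL6 replicate 1. The part that read coverage at the anchors plays was not tested.

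**Figure D5:**
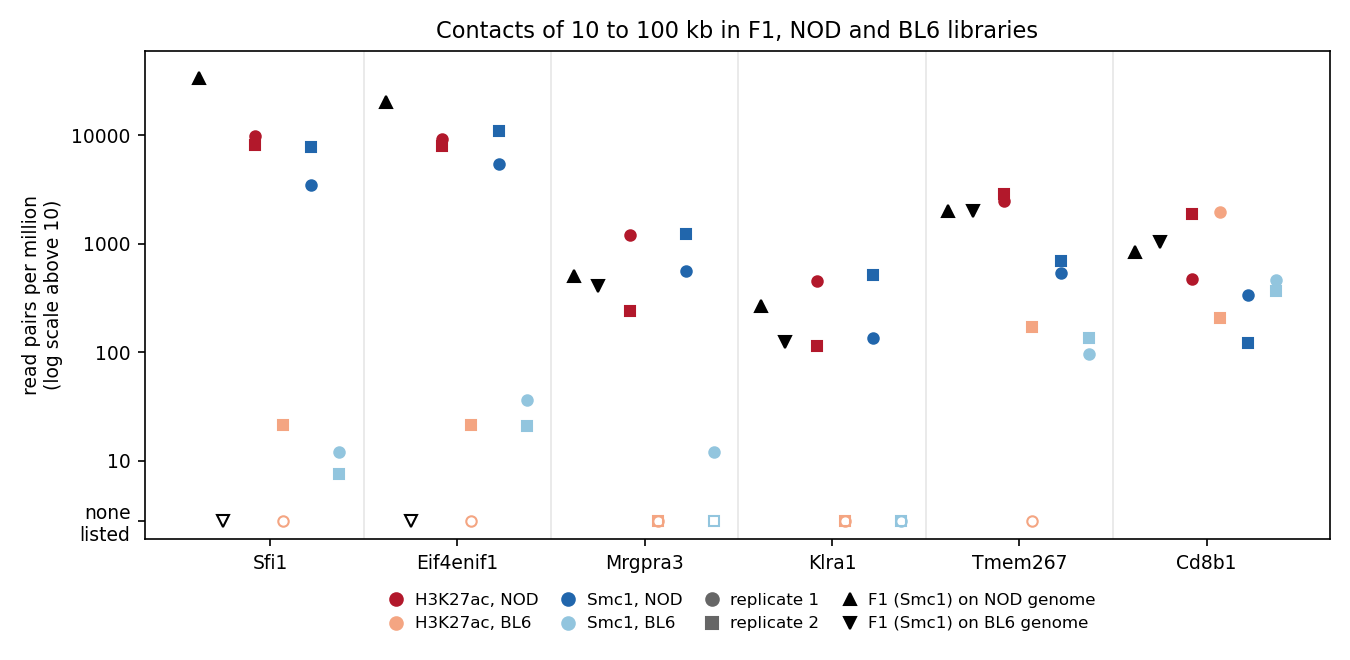
Contact levels in CPM at 10 to 100 kb of genes named in the strain comparison, for the F1 library on both genomes and the NOD and BL6 groups, on an axis that is logarithmic above 10 (circles, replicate 1; squares, replicate 2; triangles, the F1 library; open symbols, none listed). At Sfi1 the F1 library has 33662 CPM on the NOD genome and none listed on the BL6 genome, and at Mrgpra3 it has 501 CPM on the NOD genome and 410 CPM on the BL6 genome.

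Some strain differences were listed for the F1 library on both genomes. Mrgpra3, an itch receptor of sensory neurons, had 69 and 15 read pairs in H3K27ac NOD and none in H3K27ac BL6, 149 and 250 in Smc1 NOD and 3 and none in Smc1 BL6, and 56 and 40 in the F1 library on the NOD and the BL6 genome. In a fit over both antibodies, added after the data were seen, it was 1 of 8 genes higher in NOD and none lower of 6987 (0.114%; log2 fold change 7.83 ± 1.38 SE, edgeR adjusted p = 2.38e-05). The others were Sfi1 (9.12 ± 1.04 SE, edgeR adjusted p = 4.97e-15), Eif4enif1, Gm51877, Klra1, 1600014C10Rik, Gm40369 and Gm42346. Klra1, a Ly49 receptor of natural killer cells, had 26 and 7 read pairs in H3K27ac NOD, 36 and 105 in Smc1 NOD, none in any BL6 library, and 30 and 12 in the F1 library on the NOD and BL6 genomes (edgeR adjusted p = 0.00104). Mrgpr and Ly49 genes form families of similar copies, between which reads may be split, so their values are uncertain. The count of 8 became 5 without Smc1 BL6 replicate 1, Smc1 NOD replicate 1 or H3K27ac BL6 replicate 2, and 4 without Smc1 BL6 replicate 2 or Smc1 NOD replicate 2.

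Among bin pairs, 21 of 654 were higher in NOD with Smc1 (3.21%) and 24 of 110 with H3K27ac, where 2 were lower (23.6% in all, 21.8% higher and 1.82% lower). Of the higher pairs 20 and 21 lay at Sfi1. All 21 pairs called with Smc1 were listed in no Smc1 BL6 library. Of the 26 called with H3K27ac, 24 were listed in no H3K27ac BL6 library and 2 in no H3K27ac NOD library. In the fit over both antibodies given below, 30 of 32 called pairs were listed in no BL6 library and 1 in no NOD library. Such pairs passed the low-count filter through 1 group only, and an unlisted pair was not necessarily without reads. With Smc1 the count was 0 without Smc1 NOD replicate 1, 38 without Smc1 BL6 replicate 1 and 44 without Smc1 BL6 replicate 2. DESeq2 called none in either. A pair at Tmem267, a membrane protein gene (chr13:119600001-119610000 and chr13:119610001-119620000), held 69 and 81 read pairs in H3K27ac NOD and none in H3K27ac BL6, 17 and 41 in Smc1 NOD and none in Smc1 BL6, and 60 in the F1 library on either genome. In the fit over both antibodies (31 pairs higher and 1 lower of 1108, 2.89% in all, 2.8% and 0.0903% by direction) its edgeR adjusted p was 1.31e-13. With H3K27ac alone its log2 fold change was 9.57 (edgeR adjusted p = 0.0108), and 9.45 (adjusted p = 0.168 in edgeR) when features that differed between genomes in F1 were left out, although its own F1 values were equal. Over the whole gene the read pairs were 142 and 177 in H3K27ac NOD and none and 24 in H3K27ac BL6, 143 and 142 in Smc1 NOD and 24 and 52 in Smc1 BL6, and 226 and 195 in F1 on the NOD and BL6 genomes. Tmem267 thus had listed short-range contacts in BL6 as well, at other bins.

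The pair called with H3K27ac at Ccdc93 was less separate over the whole gene. It was lower in NOD, and the whole gene held none and 63 read pairs in H3K27ac NOD and 121 and 64 in H3K27ac BL6. No gene differed in its strain effect between the antibodies: 0 of 6987 in edgeR's interaction test, with 194 at an unadjusted p under 0.05 and a smallest adjusted p of 0.908, and DESeq2 was not run for it.

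Genes named as candidates for type 1 diabetes or for the Idd loci of NOD mice showed no strain call at this range. With Smc1, 9 of 19 tested members had a positive and 10 a negative log2 fold change, NOD over BL6, with a median of -0.04 beside -0.07 over all genes. With H3K27ac, 2 of 5 were positive and 3 negative. The list averaged 35.1 to 63.5 CPM per gene in H3K27ac and 25.1 to 49.6 CPM in Smc1 libraries. Its best-connected members were Rasgrp1, Clec16a and Socs1. Clec16a, an endosomal protein of autophagy, had 12 and 39 read pairs in H3K27ac NOD and 3 and 63 in H3K27ac BL6, and 17 and 4 in Smc1 NOD and 14 and 4 in Smc1 BL6. Socs1, an inhibitor of cytokine signalling, had 18 and 8 in H3K27ac NOD and 13 and 22 in H3K27ac BL6, and 23 and 18 in Smc1 NOD and 10 and 33 in Smc1 BL6. At both genes the read pairs of the strains overlapped in each antibody. In CPM both Smc1 NOD libraries at Socs1 lay just above the higher Smc1 BL6 library. Clec16a and Socs1 lie on chromosome 16, where without the H3K27ac replicate 1 libraries 1 library a strain is left.

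Regulators and receptors of thymocytes had no strain call either. Notch1, the receptor that starts T cell development, had 3 and 23 read pairs in H3K27ac NOD and 16 and 36 in H3K27ac BL6, and 11 and 25 in Smc1 NOD and 54 and 90 in Smc1 BL6. Its Smc1 groups did not overlap, and it was not called (edgeR adjusted p = 0.999949 over both antibodies). Tcf7, which encodes the T cell factor TCF1, had none and 16 in H3K27ac NOD and 46 and none in H3K27ac BL6, and 84 and 4 in Smc1 NOD and 33 and 17 in Smc1 BL6. Il4ra had 64 and 9 in H3K27ac NOD and 73 and 35 in H3K27ac BL6, and 54 and 39 in Smc1 NOD and 47 and 83 in Smc1 BL6. In each antibody the strains overlapped at Tcf7 and Il4ra. Of 24 cytokine and chemokine receptors tested with Smc1, 17 were positive and 7 negative. Of 26 thymocyte transcription factors 16 were positive and 10 negative, beside 47.3% positive over all genes tested with Smc1. With H3K27ac 3 of 6 receptors and 5 of 12 factors were positive, beside 46.1% over all genes. In the fit over both antibodies 11 of 21 receptors and 13 of 30 factors were positive, beside 41.0%. None was called in either list.

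Of 59 genes of strain-polymorphic families, 43 had contacts and 13 passed the low-count filter of the fit over both antibodies. Among these 13, 10 had a positive and 3 a negative log2 fold change, NOD over BL6. Their median was 4.76 beside -0.30 over all genes, of which 41.0% were positive. A gene high in 1 strain can pass the filter through it, and 4 of the 13 were listed in 1 strain only. The median thus describes the tested members, not the families. Over members listed in both strains the median was 3.83. Mrgpra3 and Klra1 were called, where 0.114% of all genes were. Over the 26 tested double-positive stage genes 13 were positive and 13 negative, with none called. Of genes not called with Smc1, the one with the smallest p higher in NOD, under the naming rule, was Alad, an enzyme of haem synthesis, with 90 and 139 read pairs in Smc1 NOD and 3 and 4 in Smc1 BL6 (edgeR adjusted p = 0.24), and 22 and 17 in F1 on the NOD and BL6 genomes. The one with the smallest p lower in NOD was Fxyd6, a modulator of the sodium pump, with none in Smc1 NOD and 73 and 60 in Smc1 BL6 (edgeR adjusted p = 0.79), and none in F1. The naming rule takes only features whose groups do not overlap, so the separation of the Smc1 groups at Alad and Fxyd6 was set by selection. Neither gene passed.

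Over the F1 library, 132 genes had at least 30 read pairs on 1 of the genomes. A difference of over 1.5-fold was found for 21 (15.9%) higher on the NOD genome and 8 (6.06%) higher on the BL6 genome. Of 38 such bin pairs, 34 (89.5%) were higher on the NOD genome and none on the BL6 genome. At least 21 of those 34 lay at Sfi1, so most came from 1 locus. On the NOD genome Mroh2a had 115 read pairs and Duxf3 61, and the BL6 genome listed none for them. Mroh2a also had 8 and none in H3K27ac NOD and 20 and 16 in Smc1 NOD, against none in any BL6 library, while Duxf3 had none in any parental library. Cacna1g, a calcium channel gene, was listed with 37 read pairs on the BL6 genome and with none on the other, with 15 and none in H3K27ac NOD, 5 and 18 in H3K27ac BL6, 20 and 10 in Smc1 NOD and 12 and 54 in Smc1 BL6. The 2 tables of the F1 library shared 84.1% of the 10 kb pairs on the NOD genome and 86.2% of those on the BL6 genome, far above the 2.14% to 10.2% shared by replicate libraries.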

How the data were processed

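The authors deposited 10 interaction tables from 9 libraries, each row giving 2 anchors, a count of read pairs, the reads at each anchor, and p and Q values. Per the submitters' processing notes HiC-Pro, Juicer 1.7.6 and MACS were used with build GRCm38, and per the table names the NOD positions were shifted; further steps are not given in the sources used here. No deposited table lists an interaction under 2 read pairs or with a Q value (adjusted p-value) above 0.05; p-values and Q values were not used further. Per the labels' protocols chromatin was cut with MboI and sequenced in paired ends.

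Interactions with midpoints at least 10 and under 100 kb apart on chromosomes 1 to 19 were taken with Python 3.11.15 and pandas 2.3.3. Their read pairs were summed per pair of 10 kb bins and per protein-coding gene (RefSeq, GRCm38.p6), counting an interaction once for each gene with an end within 5 kb of an anchor. Bin pairs were annotated with genes whose body, extended by 5 kb, overlapped a bin. Of 20665 genes, 18456 had contacts. Sums were tested with edgeR 4.0.16 (quasi-likelihood, TMM scaling, filterByExpr, R 4.3.3) on the band's read pairs as library sizes, with Benjamini-Hochberg adjustment over all features tested and a threshold of 0.05; DESeq2 1.42.0 was an alternative. The scripts were tested on simulated counts. Shares were compared with exact permutation tests in scipy 1.17.1. CPM is scaled to 1000000 read pairs of the band in a library. Values are reads without molecular identifiers, so duplicates are not separable, and p-values between Smc1 libraries measure technical spread, as do those between antibodies in part.

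Interactions, gene lists and the features described were chosen with earlier results of these data known. Named features were those passing the threshold with groups that did not overlap and 20 or more read pairs on average in the higher one, or the 3 with the smallest p in a direction; the rest were chosen after their values were seen. Fits over both strains or both antibodies, library-total scaling, shares with technical replicates averaged, and pairs listed in all 4 libraries of 1 antibody were added after the data were seen. Other alternatives were no low-count filter, at least 3 read pairs per interaction, a 2.5 kb gene window, 25 kb bins, a replicate term, and leaving out each library. Results for 1 gene are not reported here.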

Additional observations from a re-analysis of the deposited data

How the results depend on the processing

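Counts of calls depended on the fit, and strain calls within 1 antibody also on features that differ between genomes in F1. Counts in this paragraph are of features called at an adjusted p under 0.05. Genes with Smc1, NOD against BL6: 3, with 14 in DESeq2, 18 with no low-count filter, 7 with the replicate block, 0 with a 2.5 kb gene window, 0 without features that differ between genomes in F1, and 3 to 13 leaving out each library. Genes with H3K27ac, NOD against BL6: 0, with 3, 1 and 1 under no filter, the block and the 2.5 kb window, and 0 to 5 leaving out each library. Genes between antibodies: 0 in BL6 and 2 with no filter; 0 in NOD, 1 with no filter and 0 to 19 leaving out each library. Bin pairs with Smc1 between strains: 21, with 0 in DESeq2, 35 with the block, 0 with 25 kb bins, 0 without features that differ in F1, and 0 to 44 leaving out each library. Bin pairs with H3K27ac between strains: 26, with 0 in DESeq2, 7 with 25 kb bins and 0 without features that differ in F1. Bin pairs between antibodies: 0 in BL6 and 3 with no filter; 0 in NOD, 17 with no filter and 0 to 14 leaving out each library. Genes between antibodies in both strains: 4, with 18 in DESeq2, 0 with no filter, 1 with the block and 0 to 5 leaving out each library. Genes between strains with both antibodies: 8, with 15, 5 and 4 to 8 under DESeq2, no filter and leaving out each library. Bin pairs between antibodies in both strains: 40, with 0 in DESeq2, 74 with no filter, 6 with the block, 0 with 25 kb bins and 0 to 7 leaving out each library. Bin pairs between strains with both antibodies: 32, with 0 in DESeq2 and 13 with 25 kb bins. Cd6 had adjusted p of 7.69e-07 in DESeq2, 0.137 with the block, 0.200 with the 2.5 kb window and 0.566 to 0.899 without a Smc1 library. The difference in gene-end share was 4.32 points with the 2.5 kb window and 3.60 to 5.40 leaving out each library. Recurrent pairs numbered 42 with 25 kb bins and 5 to 10 leaving out each library. The fits without a filter tested more features. DESeq2 was given more features but adjusted p for 2619 of 17820 genes with Smc1, where edgeR tested 5683. Leaving out a library changed how many passed the filter; beyond that, the cause was not tested. The labels do not say that a replicate number marks a shared animal or day. Same-numbered deviations correlated at 0.0881 (Smc1) and 0.309 (H3K27ac) over 2 pairs, and both H3K27ac replicate 1 libraries were thin on chromosomes 16 to 19. Where leaving out a library left 1 in a group, it was assumed to vary like the other group. Of the named features' values, 572 kept direction and side of the threshold, 42 passed it newly, 156 no longer passed, and none changed direction under these settings. Library-total scaling, outside that tally and applied to genes only, changed the sign of uncalled differences. Sfi1 between antibodies had a log2 fold change of 0.68 against -0.46 under TMM. Pnmal2 between strains had 0.31 against -0.40. With 2 libraries a group, 3 to 5 read pairs as the lowest listed at 10 to 20 kb and few shared pairs between replicates, contacts of few read pairs could not be compared.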
